A study of Mus musculus with 6 samples.

Results

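The enzymes of sphingolipid and ceramide metabolism were examined in adipose tissue from mouse offspring at 32 weeks of age. The set holds 10 genes (Sptlc1, Sptlc2, Kdsr, Cers2, Degs1, Asah1, Asah2, Sphk1, Sgpl1 and Plpp3) of the 22180 genes measured, represented by 11 probe sets. The genes were named as enzymes of the pathway, and the probe set that stands for each was chosen by the highest mean over the 6 arrays. The set was proposed with earlier results of these data in view, so the differences below describe the set and the p-values give no independent support for its choice. In 3 samples the mother had received a chromium restriction diet, and in 3 samples a control diet. Both groups are labelled adipose, and the labels used here do not state strain, sex, fat depot or litter. The labels do not say whether the samples came from separate animals, so p-values measure only the spread between these arrays.

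Ceramides are made in the endoplasmic reticulum. Serine palmitoyltransferase joins serine to palmitoyl-CoA, the product is reduced and acylated, and a desaturase then yields ceramide. Ceramidases release sphingosine from ceramide, kinases phosphorylate it to sphingosine 1-phosphate (S1P), and S1P is either dephosphorylated or cleaved irreversibly. In adipose tissue ceramides are known for their link to insulin resistance, and S1P acts outside the cell on a family of receptors.

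The values are those of the deposited table, taken to be log2, with array medians of 5.44 to 5.57. Adipocyte genes were bright on all arrays, with a mean over 10 markers of 11.32 to 11.57 in the chromium restriction arrays and 11.77 to 11.92 in the controls. Among these markers Adipoq alone passed the limma threshold used below, with a log2 difference of -1.22. Of its values, 2 in the chromium restriction arrays and all 3 in the controls carried extra digits, which the next paragraph describes. In the chromium restriction group 7 liver markers averaged 11.33 on replicate 1, 10.90 on replicate 3 and 6.55 on replicate 2, against 6.56 to 6.94 in the controls. The mean of 8 intestinal markers was 6.40 in chromium restriction replicate 2 and 5.61 to 5.63 in the other two, against 5.16 to 5.36 in the controls. Brown fat markers averaged 5.63 to 5.94 in the chromium restriction arrays and 8.87, 5.85 and 6.90 in control replicates 1, 2 and 3. The means of 8 macrophage markers were 8.90 to 9.57 in the chromium restriction arrays and 8.62 to 9.20 in the controls. Because these are bulk samples, fewer cells of a type and less RNA per cell cannot be told apart.

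The way the values are written matters for 4 of the 10 genes. Values of the deposited table have a median of 7 significant digits and are the shortest form of a single-precision number. A further 183 values carry 9 or 10 digits and differ from that form, and they lie in 64 of 33793 probe sets. Kdsr, Asah2, Sgpl1 and Plpp3 lie in such rows, called rows with extra digits below. In each of these 4 genes all 3 chromium restriction values were written with extra digits. The control values of Asah2, Sgpl1 and Plpp3 were written like the rest of the table, and in Kdsr control replicate 1 also carried extra digits. None of the values of Sptlc1, Sptlc2, Cers2, Degs1, Asah1 and Sphk1 did. The sources used here do not say how these values were handled before deposit.

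Across the set, 4 of 10 genes were called by limma at an adjusted p of 0.05, 1 higher (Plpp3) and 3 lower (Kdsr, Asah2 and Sgpl1) in the chromium restriction group, and all 4 were the genes in rows with extra digits. Over all 22180 genes 0.194% passed, 0.0902% higher and 0.104% lower. Within rows with extra digits 40 of 52 genes passed, which is 76.9%, and among the other 22128 genes 3 passed, which is 0.0136%. The count of 4 of 4 is therefore to be read against 76.9%, and the count of 0 of 6 among the remaining enzymes against 0.0136%. At an unadjusted p under 0.05 the count among those 6 was also 0, against 5.73% of the other 22128 genes. When rows with extra digits were left out of the fit, 0% of 22128 genes passed, with a smallest adjusted p of 0.0732 and 1264 genes at an unadjusted p under 0.05.

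**Figure D1:**
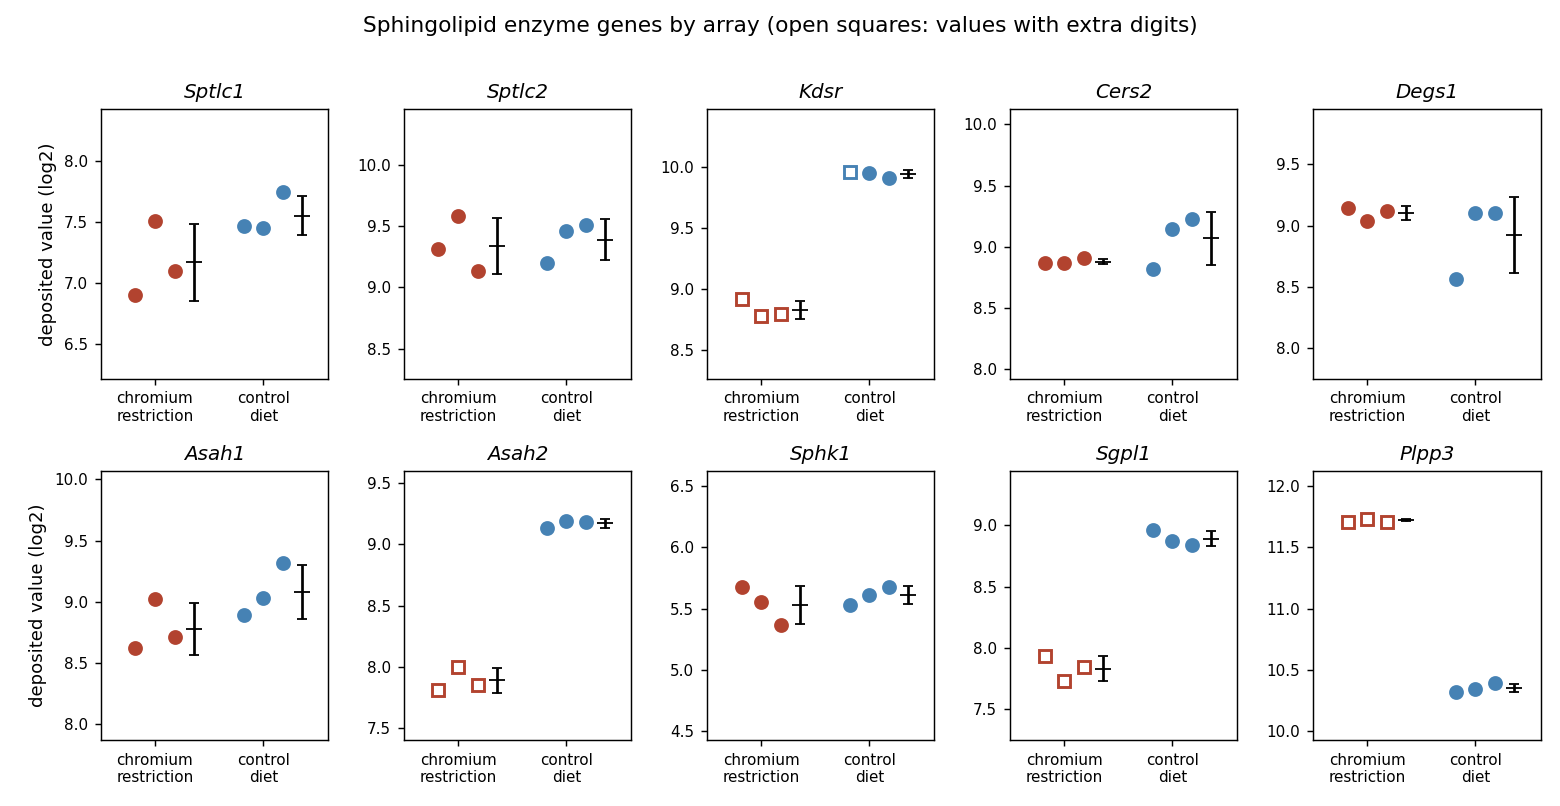
Deposited log2 value of each of the 10 genes on each array, with chromium restriction arrays on the left of each panel and control arrays on the right; open squares are values with extra digits, black bars the mean and SD of 3 arrays, and each panel spans the same height. The groups are separated in Kdsr, Asah2, Sgpl1 and Plpp3, where all chromium restriction values are open squares, and they overlap in the other 6 genes.

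The first step of the pathway is carried out by serine palmitoyltransferase, of which Sptlc1 and Sptlc2 encode the core subunits. Sptlc1 was at 6.90, 7.51 and 7.10 in the chromium restriction arrays, in the order of replicates 1, 2 and 3 as throughout, and at 7.47, 7.45 and 7.74 in the controls. The groups overlapped, with the lowest values on chromium restriction replicates 1 and 3, the arrays with liver transcripts. The log2 difference was -0.38 ± 0.17 (SE, n = 3 per group, 95% interval -0.80 to 0.04, adjusted p = 0.817 in limma). With the liver marker mean as a covariate it was -0.07 ± 0.16, and without both arrays it was -0.04. The liver marker mean was high on those arrays alone, so here and below both estimates compare chiefly chromium restriction replicate 2 with the controls. They are not separate checks. Liver RNA as a part of this difference was not tested beyond these values.

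Sptlc2 was at 9.31, 9.58 and 9.13 in the chromium restriction arrays and at 9.20, 9.46 and 9.51 in the controls. Its groups overlapped fully, and the log2 difference of -0.05 ± 0.15 had a 95% interval of -0.40 to 0.30 (adjusted p = 0.994, limma). This interval does not show that the level was alike in both groups. The 2 subunits of 1 enzyme thus both missed the threshold, and the difference between them was not tested.

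Kdsr encodes 3-ketodihydrosphingosine reductase, which reduces the product of serine palmitoyltransferase. It was listed at 8.92, 8.78 and 8.80 in the chromium restriction arrays and at 9.96, 9.95 and 9.91 in the controls. The groups did not overlap, and all values but those of control replicates 2 and 3 carried extra digits. The log2 difference was -1.10 ± 0.07 (SE, n = 3 per group, adjusted p = 0.00358, limma), or 2.15-fold lower with chromium restriction. The deviation from the control mean was -1.02, -1.15 and -1.14 in chromium restriction replicates 1, 2 and 3, all written with extra digits, and liver markers were high on replicates 1 and 3. With the liver covariate the log2 difference was -1.15, and without those arrays it was also -1.15. The part of liver RNA in this difference was not tested beyond these values.

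Cers2 encodes ceramide synthase 2, which attaches very long acyl chains. It was at 8.87, 8.87 and 8.91 in the chromium restriction arrays and at 8.82, 9.15 and 9.23 in the controls. Control replicate 1 lay below all chromium restriction arrays, so the groups overlapped, and the log2 difference was -0.18 ± 0.12 (SE, adjusted p = 0.911, limma). A second, dimmer probe set of the gene, at 5.91 to 6.05 in the chromium restriction arrays and 5.77 to 6.48 in the controls, differed by -0.12 ± 0.18. Both probe sets had their lowest value in control replicate 1, where brown fat markers were also highest. Brown fat as a part of this pattern was not tested.

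Degs1 encodes dihydroceramide desaturase 1, which forms ceramide in the last step of de novo synthesis. It was at 9.14, 9.04 and 9.12 in the chromium restriction arrays and at 8.56, 9.10 and 9.10 in the controls. The low value again belonged to control replicate 1, and the groups overlapped. The log2 difference of 0.18 ± 0.16 (SE, adjusted p = 0.969, limma) became -0.0042 without control replicate 1.

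Of the ceramidases, Asah1 encodes the lysosomal acid enzyme. It was at 8.62, 9.02 and 8.71 in the chromium restriction arrays and at 8.89, 9.03 and 9.32 in the controls. The groups overlapped, and as in Sptlc1 the lowest values were on chromium restriction replicates 1 and 3. The log2 difference was -0.29 ± 0.15 (SE, 95% interval -0.66 to 0.08, adjusted p = 0.845, limma), -0.09 with the liver covariate and -0.06 without those arrays.

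Asah2 encodes the neutral ceramidase, an enzyme known from the intestinal brush border. It was listed at 7.81, 8.00 and 7.85 in the chromium restriction arrays, all with extra digits, and at 9.13, 9.19 and 9.18 in the controls. The groups did not overlap. The log2 difference of -1.28 ± 0.08 (SE, adjusted p = 0.00358, limma), 2.43-fold lower with chromium restriction, was the most negative of the set. The highest of the 3 chromium restriction values was that of replicate 2, the array on which the mean of the 8 intestinal markers was also highest, at 6.40. Fabp2, the intestinal fatty acid binding protein and the 1 marker of the 8 that passed, had its lowest chromium restriction value there, with 7.30, 7.15 and 7.31 in the chromium restriction arrays and 5.27, 5.50 and 5.04 in the controls. Fabp2 carried no extra digits, and 0% of genes passed when rows with extra digits were left out of the fit. Replicate 2 was also the chromium restriction array with the lowest liver marker mean, at 6.55. With the liver covariate the log2 difference of Asah2 was -1.17. The part of intestinal or liver RNA in Asah2 was not tested beyond these values.

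Sphk1 encodes a sphingosine kinase, which makes S1P. It was at 5.68, 5.55 and 5.37 in the chromium restriction arrays and at 5.53, 5.61 and 5.68 in the controls. These values lie near the array medians, the sources used here do not state a background level, and so no fold is stated. The groups overlapped, with a log2 difference of -0.07 ± 0.10 (SE, adjusted p = 0.986, limma).

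Sgpl1 encodes S1P lyase, which cleaves S1P irreversibly and is the exit from the sphingolipid pathway. It was listed at 7.93, 7.73 and 7.84 in the chromium restriction arrays, all with extra digits, and at 8.96, 8.87 and 8.84 in the controls. The groups did not overlap, and the log2 difference was -1.06 ± 0.08 (SE, adjusted p = 0.00757, limma), 2.08-fold lower with chromium restriction. The call was kept without chromium restriction replicate 1 or 2 and lost without any of the other 4 arrays. The adjusted p was 0.0721 without chromium restriction replicate 3, and 0.0619, 0.0739 and 0.0602 without control replicates 1, 2 and 3.

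Plpp3 encodes a phospholipid phosphatase of the cell surface that removes the phosphate from lipids such as S1P and lysophosphatidic acid. It was listed at 11.71, 11.73 and 11.71 in the chromium restriction arrays, all with extra digits, and at 10.32, 10.34 and 10.39 in the controls. The groups did not overlap, and the log2 difference was 1.36 ± 0.06 (SE, adjusted p = 0.0015, limma), 2.57-fold higher in the chromium restriction group. The 3 chromium restriction values had an SD of 0.00824, and 0.672% of genes had a smaller SD over the same arrays. The median SD over genes was 0.137 in the chromium restriction arrays and 0.127 in the controls.

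The spread of the other 3 genes in such rows was small chiefly in the controls. The control SD was 0.0299 for Kdsr, 0.0352 for Asah2 and 0.0609 for Sgpl1, and 6.74%, 8.7% and 20% of genes had a smaller one. In the chromium restriction arrays, where all their values carried extra digits, the SD was 0.0757, 0.1 and 0.101. There 26.5%, 36.6% and 36.7% of genes had a smaller one. For the 6 enzymes in ordinary rows the pooled within-group SD had a median of 0.208, against 0.0663 for the 4 genes in rows with extra digits. Its median was 0.0887 over the 52 genes in rows with extra digits and 0.149 over all genes. The absolute log2 difference had a median of 0.18 for those 6 and 1.19 for these 4. It was 1.07 over the 52 genes in rows with extra digits and 0.0837 over all genes. Groups that did not overlap were found in 1 gene upward and 3 downward, the same 4 genes, where over all genes 3.53% did not overlap upward and 6.06% downward. Among the 52 genes in rows with extra digits the groups did not overlap in 100%, 25 upward and 27 downward.

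**Figure D2:**
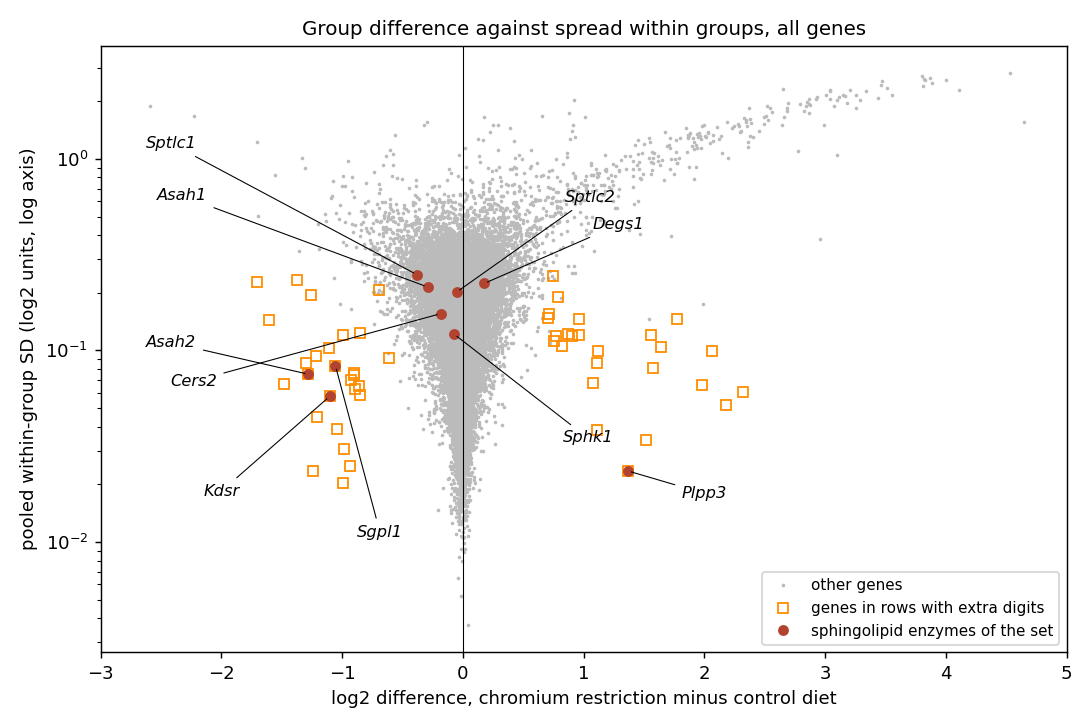
Each point is a gene, placed by its log2 difference (chromium restriction minus control diet) and by its pooled within-group SD on a log axis; open squares are the 52 genes in rows with extra digits and filled red circles the 10 sphingolipid enzymes. Kdsr, Asah2, Sgpl1 and Plpp3 lie among the squares, at absolute differences of 1.06 to 1.36, and the other 6 enzymes lie within the body of genes, at 0.0516 to 0.383.

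With every value with extra digits set to missing, Kdsr kept 0 chromium restriction values and 2 control values, and Asah2, Sgpl1 and Plpp3 kept 0 and 3. No group difference can therefore be computed for these 4 genes from values written like the rest of the table, and each has 1 probe set with a single symbol. Without both arrays rich in liver transcripts, which leaves chromium restriction replicate 2 against 3 controls, the log2 differences were -1.15 for Kdsr, -1.17 for Asah2, -1.16 for Sgpl1 and 1.37 for Plpp3, and the adjusted p ran from 0.0642 to 0.111 (limma). In that fit the residual spread comes from the 3 controls alone, and the single chromium restriction array is assumed to vary as they do.

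The sequences before the starts of these 4 genes are shown because their listed values separated the groups. Each is the 250 bases upstream of a RefSeq transcript start (GRCm38.p6), written 5′ to 3′ on the gene's strand, with matches to 5 short motifs on either strand in capitals. The motifs were the GC box GGGCGG, the CCAAT box, the E-box CACGTG, the TATA box TATAAA and the nuclear receptor half-site AGGTCA.
Kdsr, chr1:106759743-106759992, minus strand: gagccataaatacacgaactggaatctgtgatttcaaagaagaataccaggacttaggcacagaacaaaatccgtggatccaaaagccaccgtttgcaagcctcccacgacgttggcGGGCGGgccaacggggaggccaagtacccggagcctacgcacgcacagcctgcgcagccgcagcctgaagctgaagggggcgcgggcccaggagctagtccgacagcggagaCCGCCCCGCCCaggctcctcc
Asah2, chr19:32103141-32103390, minus strand: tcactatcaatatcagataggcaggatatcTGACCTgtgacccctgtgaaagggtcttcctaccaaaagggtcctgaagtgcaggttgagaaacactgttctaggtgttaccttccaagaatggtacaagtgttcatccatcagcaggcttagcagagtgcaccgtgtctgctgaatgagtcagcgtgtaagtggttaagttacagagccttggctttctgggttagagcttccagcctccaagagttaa
Sgpl1, chr10:61147685-61147934, minus strand: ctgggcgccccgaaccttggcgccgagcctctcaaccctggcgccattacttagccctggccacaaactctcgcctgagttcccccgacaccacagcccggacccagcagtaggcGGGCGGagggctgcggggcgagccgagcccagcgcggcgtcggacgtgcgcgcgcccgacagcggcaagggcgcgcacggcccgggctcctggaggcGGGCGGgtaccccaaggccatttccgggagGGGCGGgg
Plpp3, chr4:105157097-105157346, plus strand: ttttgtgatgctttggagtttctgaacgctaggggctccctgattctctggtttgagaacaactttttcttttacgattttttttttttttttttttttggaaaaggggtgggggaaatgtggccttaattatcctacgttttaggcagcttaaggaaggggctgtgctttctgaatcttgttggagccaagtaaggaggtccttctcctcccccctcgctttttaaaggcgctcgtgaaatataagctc

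The 4 upstream windows differed in composition. Kdsr and Sgpl1 were rich in G and C, at 61.6% and 74.8%, with 19 and 31 CpG dinucleotides, and each held 3 GC boxes, 2 of which overlap by 1 base in Kdsr. Asah2 had 47.2% G and C, 2 CpG dinucleotides and a single half-site match (read as TGACCT), and Plpp3 had 42.4% and none of the 5 motifs. Over 32851 windows of the same length the median was 52.4% G and C. The GC box was found in 32.7% of them, the CCAAT box in 33.8%, the half-site in 14%, the TATA box in 12.4% and the E-box in 6.02%. Windows were given for 9 of the 10 genes. Among enzymes whose groups overlapped, G and C made up 61.6% in Sptlc1, 55.2% in Sptlc2 and 69.6% in Degs1. These windows held 22, 11 and 19 CpG dinucleotides and 1, 2 and 0 GC boxes. Cers2 had windows of 74.8% and 54%, with 24 and 5 CpG dinucleotides and 2 and 0 GC boxes. The Sphk1 windows had 51.6% to 58%, 4 to 19 CpG dinucleotides and 0 GC boxes. No motif was held by all 3 genes listed lower.

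Other genes of the pathway came from a list of 56, of which 50 were measured. In limma 1 of 50 passed, upward, and 0 downward, against 0.0902% and 0.104% of all genes, and 2 lay in rows with extra digits. The median log2 difference was 0.05, with 31 higher and 19 lower, against a median of -0.02 over all genes. At an unadjusted p under 0.05 the count was 5 of 50, against 5.95% of all genes. Groups did not overlap in 3 of the 50 upward (Sptssb, B4galt5 and Cerk) and in 2 downward (Acer2 and Samd8), where the shares over all genes were 3.53% and 6.06%. Sptssb was at 4.57, 4.55 and 4.56 in the chromium restriction arrays and at 4.47, 4.52 and 4.48 in the controls. These values lie below the array lower quartiles of 4.75 to 4.82, and its log2 difference was 0.07 ± 0.06 (SE). The gene that passed was Cerk, which encodes ceramide kinase, the enzyme that makes ceramide 1-phosphate. Cerk was listed at 8.00, 7.89 and 7.87 in the chromium restriction arrays, all with extra digits, and at 6.89, 6.67 and 6.85 in the controls. Its log2 difference was 1.12 ± 0.09 (SE, adjusted p = 0.00871, limma), 2.17-fold higher in the chromium restriction group. The log2 difference of Cerk was 1.14 without chromium restriction replicate 3, 1.16 and 1.14 without control replicates 1 and 3, and 1.08 with the liver covariate, and the adjusted p was then 0.0668, 0.0514, 0.0674 and 0.0697 (limma).

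Among 11 further genes of de novo synthesis 0 passed, with log2 differences of -0.26 to 0.26. Cers4, a ceramide synthase, differed by -0.26 ± 0.22 (-0.04 without control replicate 3) and Ormdl2, a regulator of serine palmitoyltransferase, by 0.26 ± 0.18 (SE). The 3 alkaline ceramidases gave 0 calls. Acer2, the Golgi enzyme among them, was at 7.60, 7.78 and 7.84 in the chromium restriction arrays and at 8.13, 8.60 and 8.58 in the controls. Its groups did not overlap, and its log2 difference of -0.69 ± 0.15 had an adjusted p of 0.547 (limma). The value of control replicate 3 carried extra digits, and with it set to missing the difference was -0.62. The groups overlapped in Acer1 and Acer3.

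Of 7 other genes of S1P and ceramide 1-phosphate metabolism, Cerk alone passed. Sphk2, the second sphingosine kinase, differed by 0.11 ± 0.11, and the S1P phosphatase gene Sgpp1 by 0.29 ± 0.14 (SE). Plpp1 and Plpp2, which encode phosphatases related to Plpp3, differed by 0.23 ± 0.15 and -0.17 ± 0.18. Of 7 genes for S1P receptors and exporters 0 passed, with log2 differences of -0.07 to 0.28. The receptor gene S1pr1 was at 8.70, 8.33 and 8.76 in the chromium restriction arrays and at 8.64, 8.07 and 8.23 in the controls, and its groups overlapped.

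Of 10 genes of sphingomyelin metabolism 0 passed. Samd8, which encodes a ceramide phosphoethanolamine synthase, was at 7.42, 7.79 and 7.61 in the chromium restriction arrays and at 7.94, 7.88 and 7.98 in the controls. Its groups did not overlap, and the log2 difference was -0.33 ± 0.11 (SE, adjusted p = 0.771, limma), or -0.15 with the liver covariate. Of 12 glycosphingolipid genes 0 passed. B4galt5, a lactosylceramide synthase, was at 7.51, 7.19 and 7.22 in the chromium restriction arrays and at 6.92, 6.80 and 6.96 in the controls. Its groups did not overlap, and the log2 difference was 0.41 ± 0.11 (SE, adjusted p = 0.678, limma), and Galc, the lysosomal galactosylceramidase, differed by -0.28 ± 0.18, or by -0.08 without chromium restriction replicate 1.

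**Figure D3:**
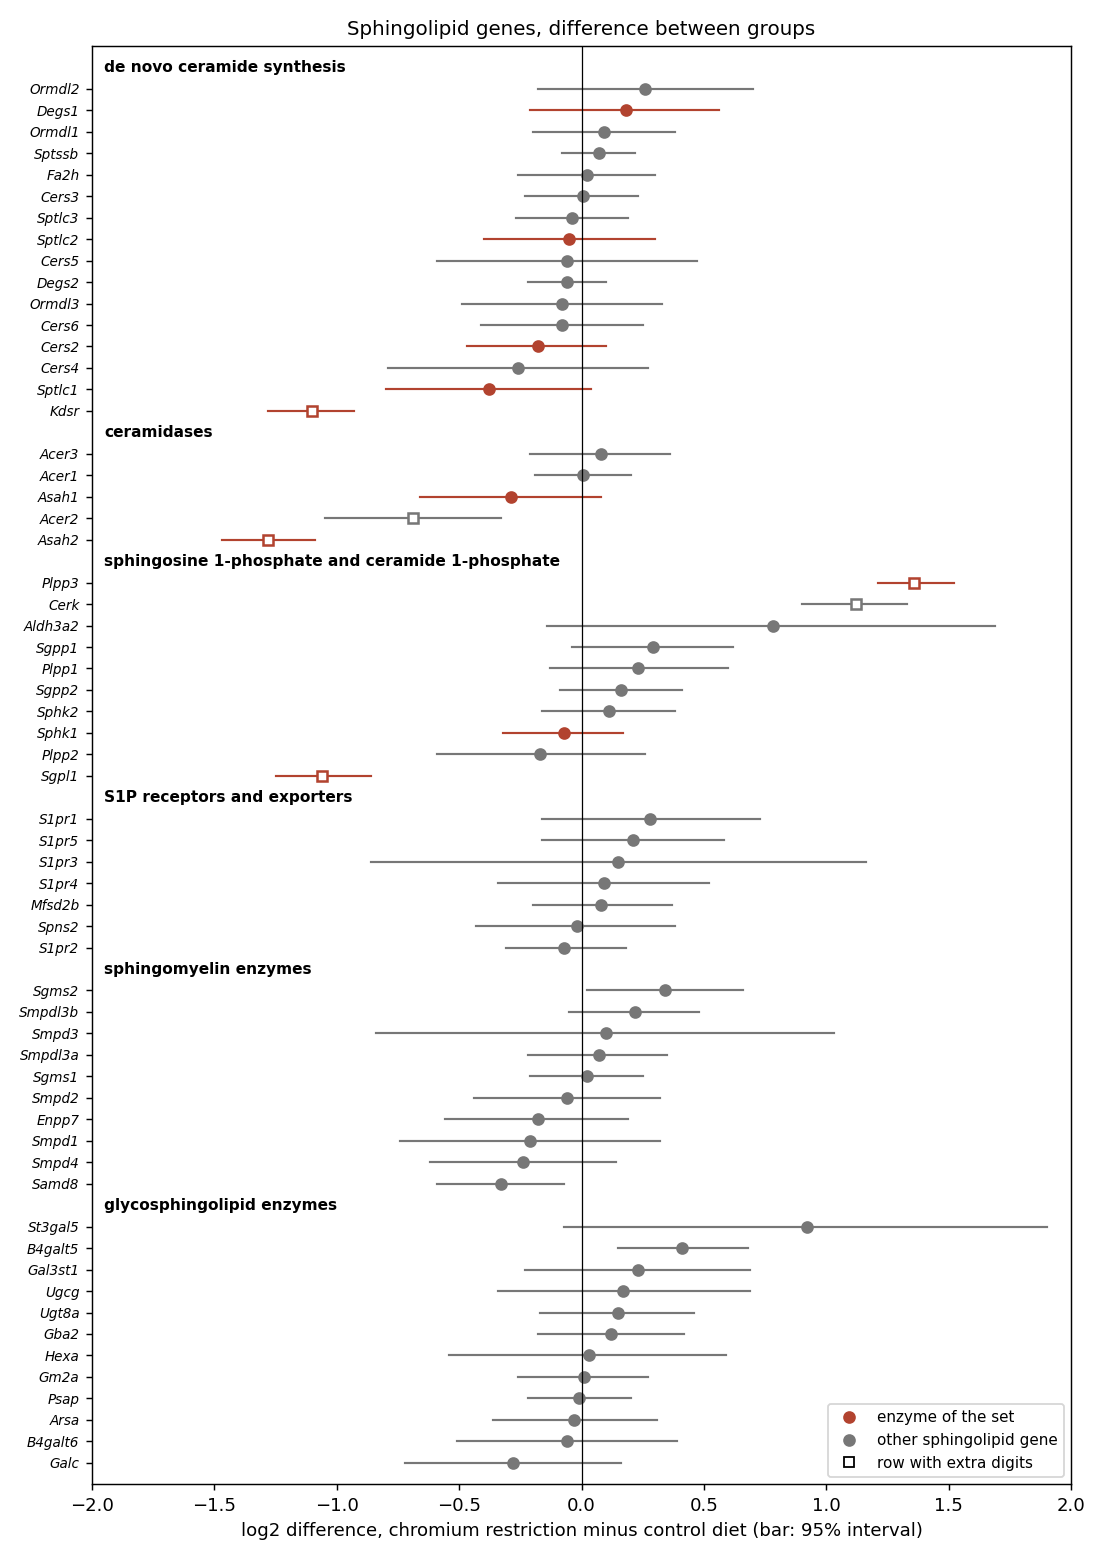
Log2 difference (chromium restriction minus control diet) with its 95% interval for 10 enzymes of the set (red) and 50 other sphingolipid genes (grey), grouped by role; open squares are rows with extra digits. Kdsr, Asah2, Sgpl1, Plpp3 and Cerk stand farthest from 0 with narrow intervals, all as open squares, and St3gal5 and Aldh3a2 have wide intervals that include 0.

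In the chromium restriction arrays St3gal5 and Aldh3a2 had the same order as the liver marker mean. St3gal5, the ganglioside GM3 synthase, was at 8.89, 7.17 and 8.14 in the chromium restriction arrays and at 7.00, 7.14 and 7.31 in the controls. Aldh3a2, a fatty aldehyde dehydrogenase that acts after S1P lyase, was at 9.69, 8.09 and 9.04 in the chromium restriction arrays and at 8.18, 8.10 and 8.21 in the controls. Both were high on the arrays with liver transcripts and at control level in chromium restriction replicate 2. Among the controls, where the liver marker mean was 6.56, 6.70 and 6.94, St3gal5 kept that order and Aldh3a2 did not. Their log2 differences of 0.92 ± 0.41 and 0.78 ± 0.38 (SE) did not pass, and with the liver covariate they were 0.04 and -0.04. Sptlc1, Asah1 and Samd8 showed the opposite order in the chromium restriction arrays, with their highest value there in replicate 2. Among the controls their highest value was in replicate 3, where the liver marker mean was also highest, and Asah1 followed its order throughout. The part of liver RNA in these patterns was not tested beyond these values.

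**Figure D4:**
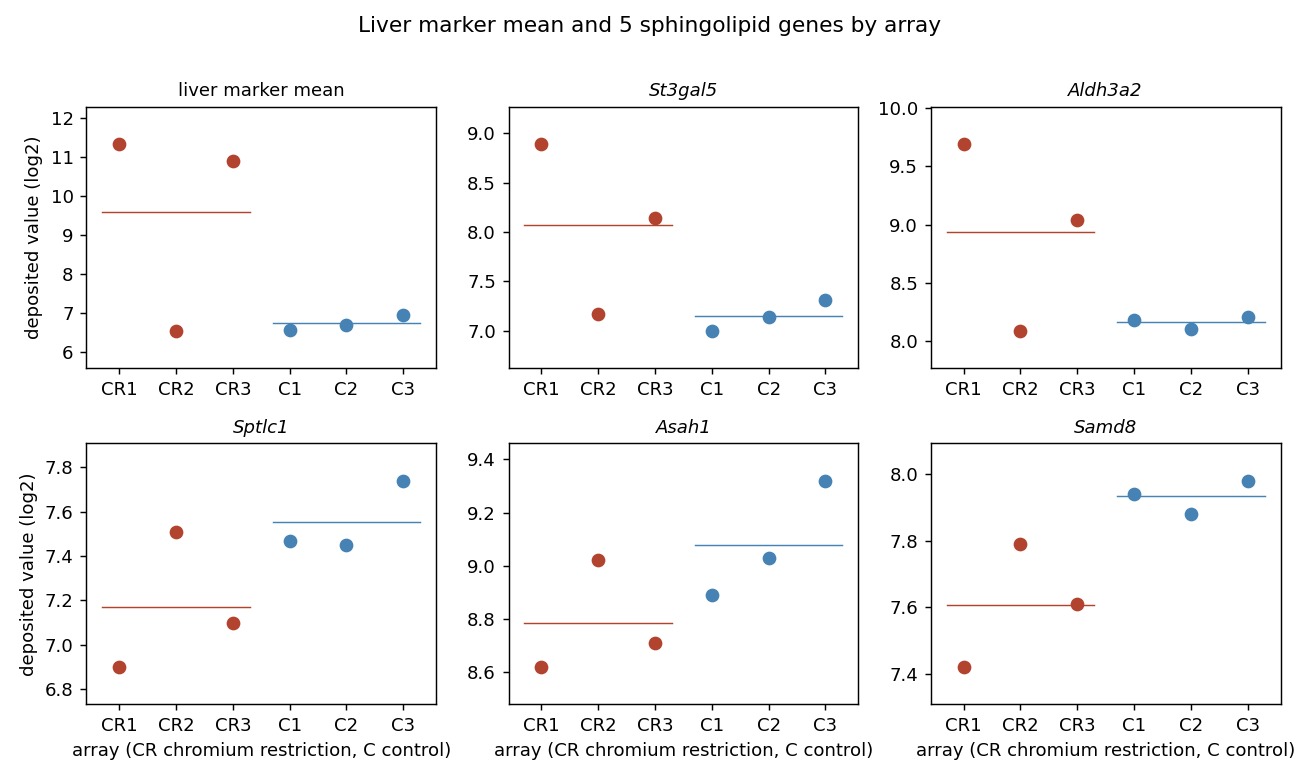
Deposited log2 values by array of the mean of 7 liver markers and of 5 sphingolipid genes, with chromium restriction arrays (CR) on the left and controls (C) on the right; lines are group means. St3gal5 and Aldh3a2 are high in CR1 and CR3 like the liver markers, while Sptlc1, Asah1 and Samd8 are lowest there.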

How the data were processed

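RNA of 6 samples was hybridised after biotin labelling, 1 array of 1 colour per sample, per the labels. The authors deposited 1 value per probe set, taken here to be log2 from its range of 3.49 to 14.86; log base, summarisation and normalization: not given in the sources used here. No further normalization was applied, and array quartiles ran from 4.75 to 4.82 and from 6.84 to 6.97. By the platform annotation, 23521 probe sets had 1 symbol, 1814 had several and 8458 had none. The brightest probe set stood for each of 22180 genes, with no filter. A value was marked as having extra digits where it differed from the shortest single-precision form of itself.

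Differences (chromium restriction minus control) were fitted over all genes by limma 3.58.1 (lmFit, then eBayes; R 4.3.3), and two-sided p-values were adjusted by Benjamini-Hochberg over the 22180 genes, with calls at 0.05. Values are log2, SE is limma's, and the number of arrays limits the precision. The fit was tested on simulated data. The members, lists and alternatives were chosen with earlier results of these data known. Genes named beyond the members were the list genes that passed, the 4 highest and 4 lowest by log2 difference, further probe sets of members and the 3 genes nearest in profile to each member in a row with extra digits. Ormdl2, Sphk2, Sgpp1, Plpp1, Plpp2, S1pr1, Acer1, Acer3, Sptssb and the markers Adipoq and Fabp2 were added after their values were seen. Markers of pancreas (4 measured), endothelium (5) and mesothelium (4) were also summarised: in chromium restriction and control arrays they averaged 5.32 to 5.35 and 5.21 to 5.36, 8.88 to 9.08 and 8.84 to 9.26, and 7.38 to 7.86 and 6.57 to 8.06. Alternatives are given in the closing section. Replicate numbers were not used to pair the samples in the main fit, and the labels do not say how they were assigned. Deviations from the group means of same-numbered samples correlated, across genes, at -0.12, -0.09 and 0.08. With so few arrays these values cannot exclude a pairing.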

Additional observations from a re-analysis of the deposited data

How the results depend on the processing

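The liver covariate, array weights, quantile normalization, median centring, testing every probe set, averaging the probe sets of a gene, dropping genes dimmer than the median gene and a trended, robust eBayes each left 4 enzymes past the threshold, namely Kdsr, Asah2, Sgpl1 and Plpp3. Over all genes these settings gave 42 to 53 genes past the threshold, against 43 of 22180, or 0.194%, in the main fit. The 4 enzymes lie in rows with extra digits, where 76.9% of genes passed in the main fit. The liver mean was high only on the liver-rich arrays, chromium restriction replicates 1 and 3. The covariate fit therefore compares chiefly replicate 2 with the controls. The count of enzymes past the threshold was 0 with the replicate number as a block, and 4 at an unadjusted p under 0.05. Without rows with extra digits, and with values with extra digits set to missing, the count was 0 at either threshold. These 4 genes had no difference to test in those 2 fits, so they could not be called there. With the replicate block the log2 differences were -1.10 for Kdsr, -1.28 for Asah2, -1.06 for Sgpl1 and 1.36 for Plpp3 (adjusted p = 0.135, 0.118, 0.138 and 0.107, limma). Without both liver-rich arrays they were -1.15, -1.17, -1.16 and 1.37 (0.0954, 0.0954, 0.111 and 0.0642), with the spread taken from the controls alone, since 1 chromium restriction array remains. Leaving out 1 array at a time gave 3 or 4 enzymes, with log2 differences of -1.15 to -1.08 for Kdsr, -1.34 to -1.24 for Asah2, -1.11 to -1.01 for Sgpl1 and 1.35 to 1.38 for Plpp3. Sgpl1 lost its call without chromium restriction replicate 3 or any 1 control.

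Of the list genes, Cerk was the 1 past the threshold, and its log2 difference was 1.09 without both liver-rich arrays. The count of list genes past the threshold was 0 with the block and with the liver covariate (5 and 3 at an unadjusted p under 0.05). Without rows with extra digits and with those values missing, where Cerk had no difference to test, the count was also 0 (3 and 4). Leaving out 1 array gave 0 to 1, with 0 without chromium restriction replicate 3 or control replicate 1 or 3. Over all genes the count was 0 with the block, without rows with extra digits and with those values missing, and 6 without both liver-rich arrays. It ran from 24 to 439 when 1 array was left out, with 439 without chromium restriction replicate 2 and 24 without replicate 3 or any 1 control. With all arrays it was 43, and without chromium restriction replicate 1 it was 36. The fit without chromium restriction replicate 2 kept only liver-rich arrays in that group. Fewer arrays or genes entered several of these fits, and the cause of the changes in count was not tested.

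Small differences changed sign. Sptlc2 was 0.16 with the liver covariate, 0.19 without both liver-rich arrays and -0.17 to 0.05 leaving out 1 array. Degs1 ran from -0.0042 to 0.27 and Sphk1 from -0.15 to 0.01 when 1 array was left out. Cers4 was 0.01 without both arrays, and Aldh3a2 was -0.04 with the covariate and -0.07 without both. Whether dim genes such as Sphk1 exceed background is not known here.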

Other observations

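The genes whose profile over the 6 arrays was most like that of each enzyme in a row with extra digits were found by the root mean square difference of log2 values, each gene centred on its own mean. For Kdsr they were Sgpl1 (0.0423), Ivd (0.0509) and Ppard (0.0579), and for Sgpl1 they were Kdsr (0.0423), Hibadh (0.0666) and Ivd (0.0799). For Asah2 they were Mcpt2 (0.0734), Ppard (0.103) and Polr3gl (0.132), and for Plpp3 they were Retn (0.0788), Dnmt3b (0.127) and Fabp3 (0.131). Each of them was written with extra digits as well. Kdsr and Sgpl1, which act near the start and at the exit of the pathway, were each other's nearest gene among 22180. Their log2 differences of -1.10 and -1.06 rest on values with extra digits, and the measure largely follows the group difference. The match therefore adds no separate evidence. Ivd and Hibadh are enzymes of branched-chain amino acid breakdown, Ppard a nuclear receptor, Retn the adipokine resistin and Fabp3 a fatty acid binding protein.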
